A study of Mus musculus with 8 samples.

Results

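The cadherin superfamily was examined in the hippocampus of BTBR mice, an inbred strain used as a mouse model of autism, and of B6 (C57BL/6J) control mice. Members were all array probes whose gene name in the scanner output begins with Pcdh or with Cdh and a digit, except the endothelial gene Cdh5. This gave 115 of the 41174 non-control probes and 67 of the 27373 gene names on the array. They were divided into the clustered protocadherins (45 probes, 33 gene names of the Pcdha, Pcdhb and Pcdhg groups) and the other protocadherins and cadherins (70 probes, 34 gene names). The samples were whole hippocampi of untreated males aged 5 months, 4 BTBR (genotype BTBR T+ Itpr3tf/J) and 4 B6 (wild type), with 1 array for each. The labels of both groups give C57BL/6J as strain background, whereas the title, source and genotype name the BTBR mice. As 2 inbred strains, the groups differ across the whole genome and not at 1 locus. Expression was measured as the intensity of Cy3-labeled RNA on Agilent probes of 60 bases, reported here as quantile-normalized log2 intensity. A difference of 1 stands for a doubling of the intensity after an offset of 50 was added, which makes differences of dim probes smaller.

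Cadherins are calcium-dependent adhesion proteins of the cell surface. Their extracellular repeats bind those of cadherins on the next cell, and in classical cadherins the cytoplasmic tail holds catenins, which join the junction to actin. Protocadherins carry the same kind of repeats, lack the catenin-binding tail of the classical members and are abundant in brain. The genes of the alpha, beta and gamma clusters stand in a row on 1 chromosome, and single neurons use different combinations of them, which serves self-recognition of neurites. The alpha and gamma genes each join a variable first exon to constant exons shared by the whole cluster, whereas beta genes have no constant exon.

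At an adjusted p under 0.05, 5 of 92 tested member probes (5.43%) differed between the strains, against 7.61% of all tested probes, and all 5 were outside the clusters. Probes of Cdh18, Cdh11 and Pcdh9 were brighter in BTBR, and probes of Cdh10 and Pcdh9 were dimmer. The sequences of 3 of the 5 are shown because they let the calcium-binding motif of the family be seen where a probe covers it. Each reads 5′ to 3′ on the strand of the transcript, and capitals mark bases that fit such a motif. The Cdh11 probe A_52_P683146 lies at chr8:105191906-105191965, the Pcdh9 probe A_51_P432432 at chr14:94286116-94286175 (both on the minus strand) and the Cdh18 probe A_51_P272754 at chr15:23404051-23404110 (plus strand), in the mm9 coordinates of the scanner files.
Cdh11 A_52_P683146: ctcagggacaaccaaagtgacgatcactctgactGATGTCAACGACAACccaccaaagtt
Pcdh9 A_51_P432432: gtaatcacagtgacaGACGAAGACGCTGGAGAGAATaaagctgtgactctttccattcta
Cdh18 A_51_P272754: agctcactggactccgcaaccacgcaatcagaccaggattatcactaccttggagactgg
The motif in the Cdh11 probe fits the codons of Asp-X-Asn-Asp-Asn and that in the Pcdh9 probe those of Asp-X-Asp-X-Gly-X-Asn. Both were searched on both strands with any base at the last position of each codon, so codons of Glu and Lys in place of Asp and Asn match as well. The first was found in 4 of 115 member probes (3.48%, in Cdh11, Cdh4 and Pcdh19) and in 226 of all 41174 probes (0.549%). The second was found in 1 member probe (0.87%) and in 77 of all probes (0.187%). The Cdh18 probe holds neither and has no stop codon in any forward reading frame. A match is a description of the letters only.

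Of the 115 member probes, 92 from 58 gene names were well above background on at least 75% of the arrays of 1 strain and were tested. The other 23 had strain means between 7.48 and 8.04, and 12 of them were well above background on no array. No tested probe remained for Cdh1 (E-cadherin, of epithelia), Cdh9, Cdh16, Cdh17, Cdh19, Cdh24, Pcdhb1, Pcdhga12 or Pcdhgb4. On the whole array 27982 probes were tested with limma, and 2129 (7.61%) were called at an adjusted p under 0.05 (Benjamini-Hochberg over all tested probes). The share well above background ranged from 56.8% to 71.9% between arrays, no probe was saturated, and 4 arrays per strain limit the precision. The arrays filled 2 slides, with replicates 1 and 2 of both strains on the first.

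BTBR replicates 1 and 2 stood apart from the other 6 arrays in markers of hippocampal regions. The mean log2 intensity of 5 CA1 pyramidal markers was 12.49 and 12.45 in these replicates, against 13.35 to 13.74 on the other arrays. For 4 of 5 listed CA3 markers it was 12.30 and 12.37, against 13.14 to 13.73, and for 6 dentate granule cell markers 9.99 and 9.12, against 10.74 to 12.04. Markers of the neighbouring striatum (9 of 10) were highest in BTBR replicate 2 (13.35), B6 replicate 2 (11.77) and BTBR replicate 1 (11.17), against 9.67 to 10.05 elsewhere. The 12 thalamic markers reached 13.57 in BTBR replicate 1 and 11.30 in BTBR replicate 2, against 10.57 to 10.89. Leaving out BTBR replicates 1 and 2 keeps BTBR on the second slide only, against B6 on both. Strain and slide can then not be fully told apart. Without these replicates the difference changed sign at 11 of the 41 tested clustered probes and at 17 of the 51 others, none of them called. Values without these arrays are given beside a member where they ended or gave a call, or where the difference of a member listed by array moved by over 1.5 times. The list of 10 choroid plexus markers was also highest in BTBR replicates 1 and 2 (12.63 and 12.51, against 10.57 to 11.81), as was that of 7 oligodendrocyte markers (15.19 and 15.46, against 14.39 to 14.90). The mean of 7 astrocyte markers was lower on all BTBR arrays, at 13.98 to 14.12 against 14.31 to 14.39, with 4 of 17 probes called lower (of Gfap and Aldoc) and Aldh1l1 not called (0.19). In whole tissue, fewer cells of a type and less RNA per cell cannot be told apart.

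Among the other protocadherins and cadherins, 5 of 51 tested probes were called (9.80%), 3 higher and 2 lower in BTBR. Over all tested probes 3.31% were called higher and 4.3% lower. These 5 probes belong to 4 of the 28 tested genes, namely 3 type II classical cadherins (Cdh10, Cdh11 and Cdh18) and 1 delta protocadherin (Pcdh9). The median difference of the 51 probes was 0.07, against 0.01 over all tested probes, and the median absolute difference was 0.16, against 0.10. The strains did not overlap at 7 of the 51 probes, and at 14.2% of all tested probes. The rank product, the test named in the study's methods, also called 5 of the 51 probes, 4 of them called by limma, and 3.92% of all tested probes. Without BTBR replicates 1 and 2, 4 of the 51 were called, against 5.54% of all tested probes. Without these and B6 replicate 2 there were also 4, against 4.23%.

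**Figure D1:**
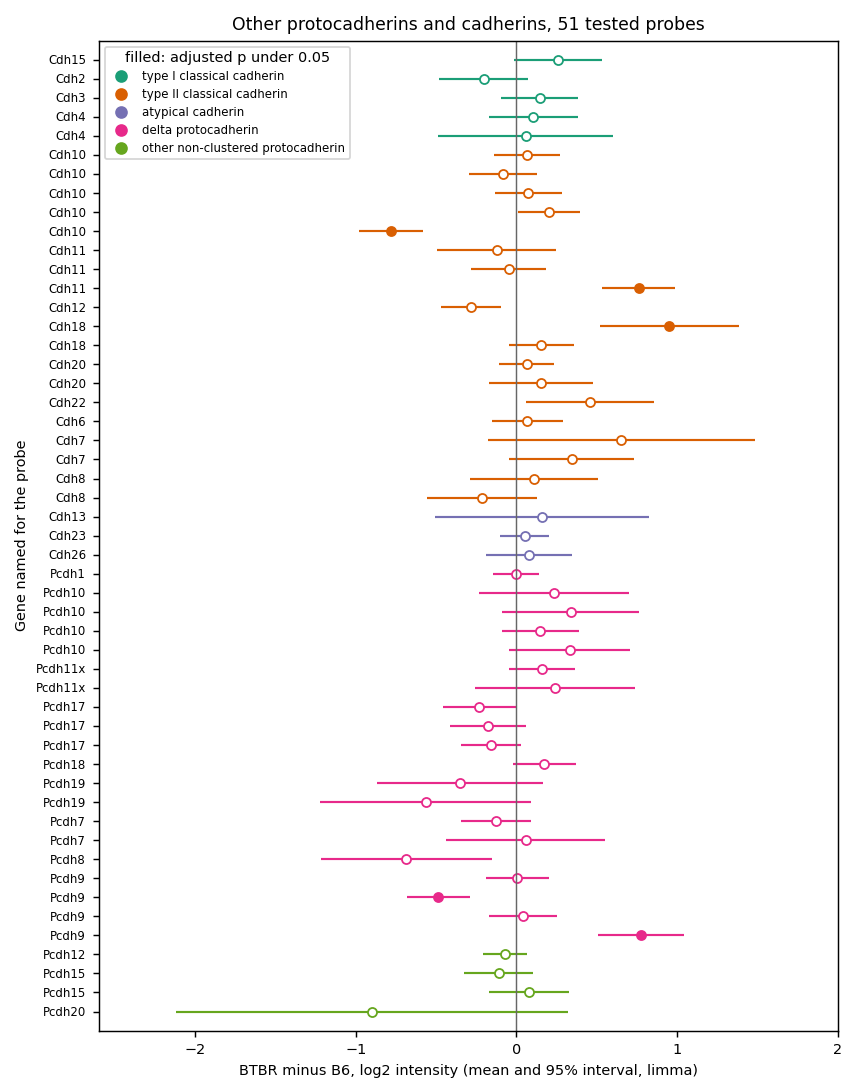
Difference between BTBR and B6 in log2 intensity (x axis) for each of the 51 tested probes of the other protocadherins and cadherins (y axis, by gene), with the 95% interval from limma; colours mark subgroups and filled points the 5 called probes. Most points lie close to 0, the called probes of Cdh11, Cdh18 and Pcdh9 lie right of it and those of Cdh10 and Pcdh9 left, and the interval of Pcdh20 is the widest (-2.12 to 0.32).

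Cdh18, a type II classical cadherin of neurons, showed the largest difference among the called member probes on the scale used here with all arrays. This ranking did not hold with the scanner's processed signal or without BTBR replicates 1 and 2. At A_51_P272754, printed above, the 4 B6 arrays read 9.03, 9.26, 9.14 and 8.75, and the 4 BTBR arrays read 10.45, 10.19, 9.57 and 9.79. Every BTBR value lay above every B6 value, and BTBR replicates 1 and 2 were the highest. The mean was 9.998 ± 0.39 in BTBR and 9.05 ± 0.22 in B6 (SD, n = 4 each), a difference of 0.95 (SE 0.19, 1.94-fold, limma adjusted p = 0.0159, 95% interval 0.52 to 1.39). It was 1.17 on the first slide and 0.73 on the second, and 1.34 over all arrays with the scanner's processed signal. Without BTBR replicates 1 and 2 it was 0.63 and no longer called (limma adjusted p = 0.0553), and the call was also lost without B6 replicate 1 (0.0503) or B6 replicate 4 (0.0511). The adjusted p ranged from 0.00351 to 0.0553 over 21 alternatives, all with the same direction. The other tested Cdh18 probe, A_52_P630905, which spans an exon junction 247.38 kb upstream, differed by 0.16 (95% interval -0.05 to 0.36), and by 0.05 without BTBR replicates 1 and 2.

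Cdh11, known as OB-cadherin of bone and mesenchyme and also expressed in neurons, was measured by 3 probes. At A_52_P683146, printed above, the B6 arrays read 12.51, 12.11, 12.42 and 12.41, and the BTBR arrays read 13.004, 13.11, 13.28 and 13.09. The strains were well separated, with means of 12.36 ± 0.18 in B6 and 13.12 ± 0.11 in BTBR, a difference of 0.76 (SE 0.10, 1.69-fold, limma adjusted p = 0.0015). The other 2 probes lie 34.01 and 34.43 kb away, towards the end of the gene. A_51_P506204 read 11.48, 11.51, 11.52 and 11.78 in B6 and 11.11, 11.18, 11.72 and 11.78 in BTBR, a difference of -0.12 (95% interval -0.49 to 0.24) that was 0.17 without BTBR replicates 1 and 2, and A_52_P437795 differed by -0.05 (-0.28 to 0.19). At both of these probes the strains overlapped.

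The called Cdh11 probe is not specific to Cdh11. Besides the Cdh11 transcript, the array annotation lists for it the transcripts of 2610005L07Rik and 6820431F20Rik, both classed as transcribed pseudogenes in RefSeq (GRCm38.p6). The intensity of this probe can hold RNA of all 3, and their shares cannot be told apart. These pseudogenes are no members and were looked up after the Cdh11 values were seen. Of their own 5 probes, 3 were called brighter in BTBR as well. At A_52_P425634 of 6820431F20Rik the B6 arrays read 14.13, 13.77, 13.95 and 13.82, and the BTBR arrays read 15.19, 14.85, 14.78 and 14.88, a difference of 1.01 (SE 0.11, limma adjusted p = 5.548e-04). At the 2 probes listed for both pseudogenes, A_52_P212336 and A_52_P335089, the differences were 0.85 (SE 0.10) and 0.78 (SE 0.12), with limma adjusted p = 7.949e-04 and 0.00382. The strains did not overlap at any of these 3 probes. Of the remaining 2 probes named 2610005L07Rik, A_52_P434009 was lower in BTBR by a difference of -0.35 (limma adjusted p = 0.0457), and A_52_P7105 was not called (0.14). The higher signal thus stood at the 1 Cdh11 probe that lists the pseudogenes, and not at the 2 that list Cdh11 alone.

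Pcdh9, a delta protocadherin of neurons, had 2 called probes of opposite direction. The array annotation lists 4 RefSeq transcripts for A_51_P432432 and none for A_52_P197199, so which transcript the second reads is not known here. They lie 1.27 kb apart, while its other 2 probes lie about 870 kb further downstream (870.32 kb or more). At A_51_P432432, over a calcium-binding motif, the B6 arrays read 11.76, 11.54, 11.77 and 11.64, and the BTBR arrays read 11.34, 11.12, 11.25 and 11.05. At A_52_P197199 (chr14:94284843-94284902, minus strand) the B6 arrays read 13.88, 13.44, 13.71 and 13.50, and the BTBR arrays read 14.43, 14.47, 14.55 and 14.18. In neither case did the strains overlap. The first was lower in BTBR by a difference of -0.49 (SE 0.09, 1.40-fold, limma adjusted p = 0.00787), and the second was higher by 0.77 (SE 0.12, 1.71-fold, limma adjusted p = 0.0034). The probes A_51_P124262 and A_51_P475704 differed by 0.00 (95% interval -0.19 to 0.20) and 0.04 (-0.17 to 0.25).

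The contrast between the 2 called Pcdh9 probes was taken within each array. The log2 intensity of A_52_P197199 minus that of A_51_P432432 was 1.95 ± 0.11 in B6 and 3.21 ± 0.13 in BTBR (SD, n = 4 each). The strains thus differed by 1.26 in this contrast, with no overlap (a description, since both probes were chosen by their calls). The call of A_52_P197199 was lost without B6 replicate 2 and BTBR replicates 1 and 2 (difference 0.66, limma adjusted p = 0.0808, in a range of 0.00131 to 0.0808 over 21 alternatives). A_51_P432432 was not called by the rank product, with an estimated percentage of false predictions (pfp) of 0.133 as a fraction.

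Cdh10, a type II classical cadherin expressed in forebrain neurons, had 7 probes, of which 5 were tested. At A_52_P544810 (chr15:18749725-18749784, plus strand) the B6 arrays read 8.90, 8.56, 8.69 and 8.74, and the BTBR arrays read 7.87, 7.91, 8.08 and 7.90. This probe was well above background on all 4 B6 arrays and on 1 of 4 BTBR arrays, so it was tested through its B6 arrays alone. The difference was -0.78 (SE 0.09, limma adjusted p = 5.534e-04), and the strains did not overlap. Near background its size depended on the scale, with -2.21 from the scanner's processed signal and -0.50 in the deposited matrix. At A_52_P384718, a probe 193.62 kb downstream, the B6 arrays read 11.25, 11.46, 11.19 and 11.39 and the BTBR arrays read 11.61, 11.59, 11.37 and 11.51. These ranges overlapped, and the difference was 0.20 (95% interval 0.01 to 0.39, limma adjusted p = 0.248), and 0.12 without BTBR replicates 1 and 2. The other 3 tested probes differed by 0.07, -0.09 and 0.07, but with strain means of 8.07 to 8.33 they lay near background. A fall like that of the called probe could hardly be seen at them. The lower signal in BTBR was thus measured at 1 of the 5 tested probes named Cdh10. No RefSeq transcript is listed for that probe, so which transcript it reads is not known here, and A_52_P384718 is the 1 tested probe of the 5 that lists one.

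**Figure D2:**
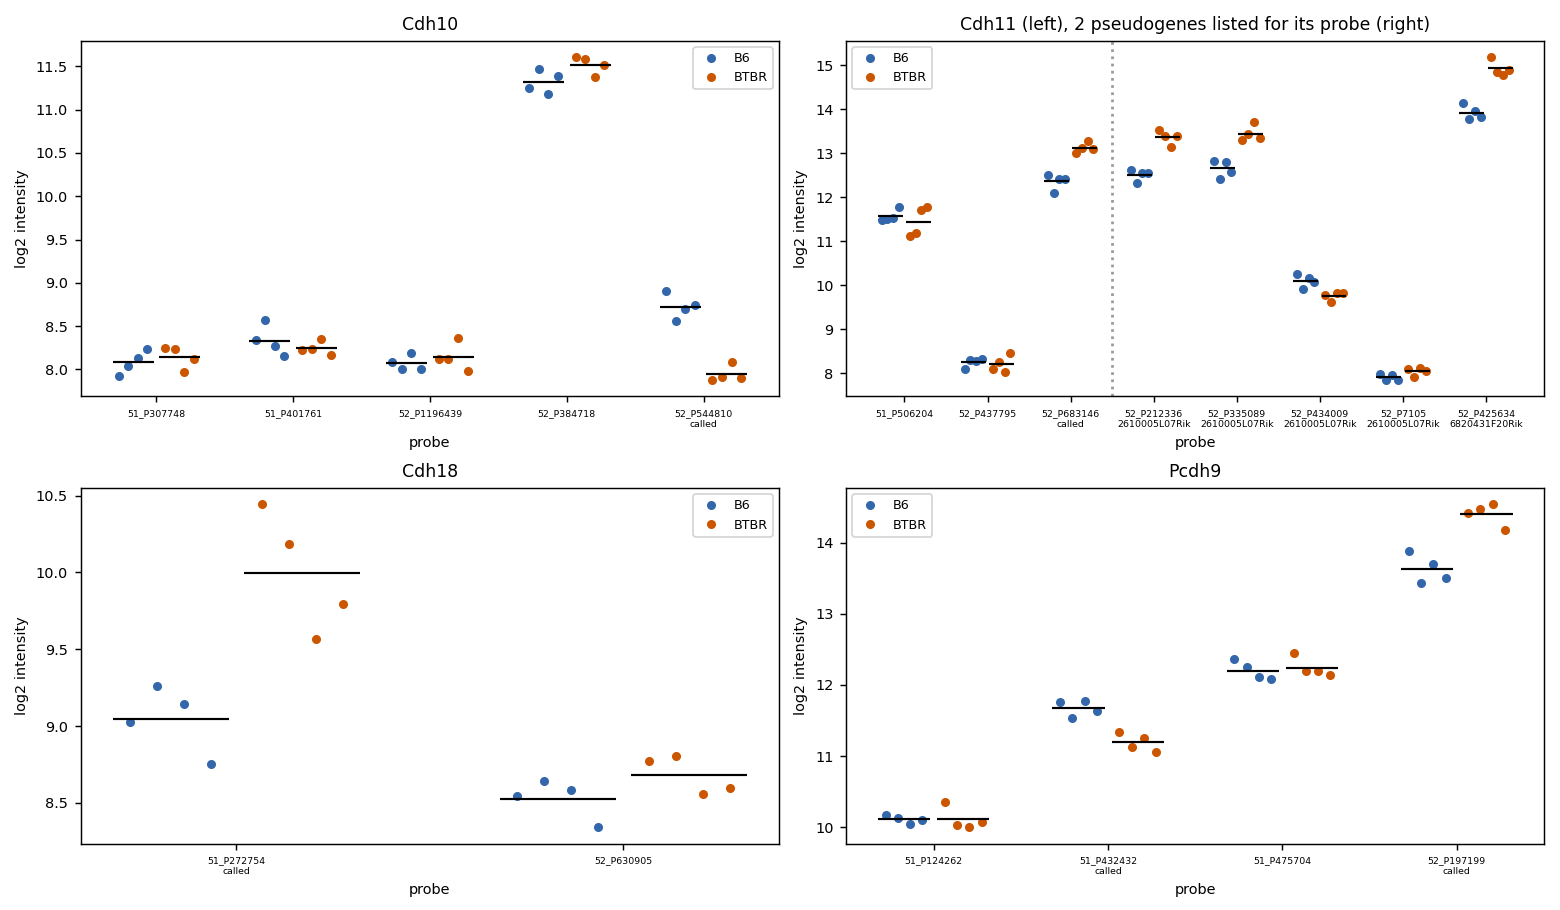
Log2 intensity of each array (points, 4 per strain; lines are means) at every tested probe of Cdh10, Cdh11, Cdh18 and Pcdh9, with the 5 probes of the pseudogenes listed for the called Cdh11 probe to the right of the dotted line; "called" marks member probes with a limma adjusted p under 0.05. Within each gene the strains separate at the called probes and overlap at the others, and of the 5 pseudogene probes 3 are higher in BTBR, 1 is lower (A_52_P434009) and 1 overlaps (A_52_P7105).

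In Cdh18, Cdh11 and Pcdh9 the called probes were set against the rest of their gene. Their log2 intensity minus the mean of the gene's probes that were not called differed between strains by 0.80 for Cdh18, 0.85 for Cdh11, and by 0.75 and -0.51 for the 2 Pcdh9 probes. The Cdh18 reference was 1 dim probe (mean 8.53 in B6 and 8.68 in BTBR). Of the 2 Cdh11 reference probes, A_52_P437795 was near background (8.26 and 8.21). No such contrast is given for Cdh10, whose called probe was near background in BTBR. These contrasts are given without a test, because the probes were chosen by their calls. When the tested probes of a gene were combined by their median, 1 of the 28 genes was called (Cdh18, difference 0.55, limma adjusted p = 0.0441), against 7.78% of the 18399 genes so tested. Across the 14 genes with more than 1 tested probe, the range of differences within a gene had a median of 0.20, and in 8 of them all probes had the same sign.

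The remaining type II cadherins were not called with all arrays, and those named here and among the type I, atypical, delta and beta members without a call were picked by known role or after their values were seen, except the brightest probe of each subgroup. Cdh8, which marks subsets of cortical and hippocampal neurons, differed by 0.11 and -0.22 at its 2 tested probes, and by 0.32 and -0.01 without BTBR replicates 1 and 2. Cdh12, a brain cadherin whose probe lies between those of Cdh10 and Cdh18 on chromosome 15, differed by -0.28 (95% interval -0.47 to -0.10, limma adjusted p = 0.0813). It was called without BTBR replicate 1 (-0.34, limma adjusted p = 0.0333, in a range of 0.0333 to 0.543 over 21 alternatives). Its 4 BTBR values (8.80, 8.48, 8.57 and 8.62) lay below its 4 B6 values (8.84, 9.01, 8.93 and 8.84), the only tested type II probe besides the called ones without overlap. Cdh6 differed by 0.07, and Cdh20 by 0.06 and 0.15.

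Type I and atypical cadherins gave no call among 5 and 3 tested probes. By limma, none of these 8 probes had an unadjusted p under 0.05, against 18.5% of all tested probes, and the rank product called none, against 3.92%. With 8 probes, such counts are too small to set this group apart. Cdh2, the N-cadherin of excitatory synapses, read 10.86 ± 0.09 in B6 and 10.65 ± 0.26 in BTBR (difference -0.21, 95% interval -0.48 to 0.07). Cdh15, or M-cadherin of muscle and cerebellum, had the brightest type I probe over all 8 arrays, with 10.72 ± 0.17 in B6 and 10.98 ± 0.20 in BTBR (difference 0.26, -0.02 to 0.53). Cdh13, the T-cadherin that is anchored by a lipid and has no cytoplasmic tail, read 13.93 ± 0.30 in B6 and 14.10 ± 0.64 in BTBR (difference 0.16, -0.51 to 0.83). Its sign turned without BTBR replicates 1 and 2 (-0.34), without these and B6 replicate 2 (-0.19) and without BTBR replicate 2 alone (-0.05). The intervals of Cdh2, Cdh15 and Cdh13 leave room for differences of either sign.

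The delta protocadherins other than Pcdh9 were not called either. Pcdh17, present at presynaptic sites of corticobasal circuits, had the brightest delta probe over all 8 arrays. Its 3 probes differed by -0.23, -0.18 and -0.16, and their strain ranges overlapped. Pcdh1 differed by 0.00 (95% interval -0.14 to 0.14), and Pcdh18, which binds the adaptor Dab1, differed by 0.17 with BTBR values above all B6 values (limma adjusted p = 0.345). Pcdh12 and Pcdh15, of endothelium and of hair cells, were counted outside the delta group and differed by -0.07 and by -0.11 and 0.08.

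Several members with broad intervals varied with the 2 BTBR replicates whose hippocampal markers were low. They were chosen after their values were seen, although Pcdh20 also has the brightest probe of its subgroup. Pcdh20, a protocadherin with no assigned cluster, read 14.44, 13.97, 14.42 and 14.75 in B6 and 12.30, 12.52, 14.71 and 14.45 in BTBR. The difference was -0.90 (SE 0.54, limma adjusted p = 0.438), and it was -1.80 on the first slide and 0.00 on the second. Strain by slide interaction had an unadjusted limma p of 2.86e-04 and an adjusted p of 0.402, and no probe of the array passed for this term. An unadjusted p under 0.05 was found for 8 of the 51 probes and for 9.94% of all tested probes. The SD of Pcdh20 over the BTBR arrays, 1.26, lay at percentile 99.7 of all tested probes. The rank product called Pcdh20 lower in BTBR (pfp 0.0499 as a fraction), and without BTBR replicates 1 and 2 the difference was 0.18.

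Pcdh19, a gene of the X chromosome whose loss is known from an epilepsy of girls, showed the same split. Its probe A_52_P432969 read 14.20, 13.89, 14.17 and 14.46 in B6 and 13.38, 12.80, 14.14 and 14.14 in BTBR, a difference of -0.57 (95% interval -1.22 to 0.09) that became -0.04 without BTBR replicates 1 and 2. Pcdh8, or arcadlin, which is induced by neuronal activity and takes N-cadherin off synapses, read 13.53, 13.11, 13.64 and 13.56 in B6 and 12.71, 12.23, 12.72 and 13.45 in BTBR. Here BTBR replicate 3 was low as well, and replicate 4 lay within the B6 range. The difference was -0.69 (limma adjusted p = 0.141) and was -0.38 without BTBR replicates 1 and 2. Without BTBR replicate 4 alone it was -0.91 and called (limma adjusted p = 0.0148, in a range of 0.0148 to 0.464 over 21 alternatives).

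Cdh7 went the other way. Its probe A_51_P518919 read 9.56, 10.10, 9.76 and 9.02 in B6 and 10.89, 10.91, 9.43 and 9.82 in BTBR, a difference of 0.65 (95% interval -0.18 to 1.48) that became 0.01 without BTBR replicates 1 and 2. Cdh22, a type II cadherin of brain and pituitary, differed by 0.46 (limma adjusted p = 0.198), with 12.40 and 12.43 in BTBR replicates 1 and 2 and 12.21 in B6 replicate 2 as its highest values, and by 0.26 without BTBR replicates 1 and 2. Pcdh10, or OL-protocadherin, which is strong in striatal and olfactory circuits, had all of its 4 probes highest on these same 3 arrays. The 3 arrays with the highest striatal markers were the highest 3 at 13 of the 51 probes, from Cdh4, Cdh6, Cdh7, Cdh13, Cdh18 (the probe that was not called), Cdh22, Pcdh7, Pcdh10 and Pcdh11x, and at 5.8% of all tested probes. They were the lowest 3 at 5 of the 51, from Cdh8, Pcdh19 and Pcdh20, and at 7.01% of all tested probes. The part of these markers in the member values was not tested.

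**Figure D3:**
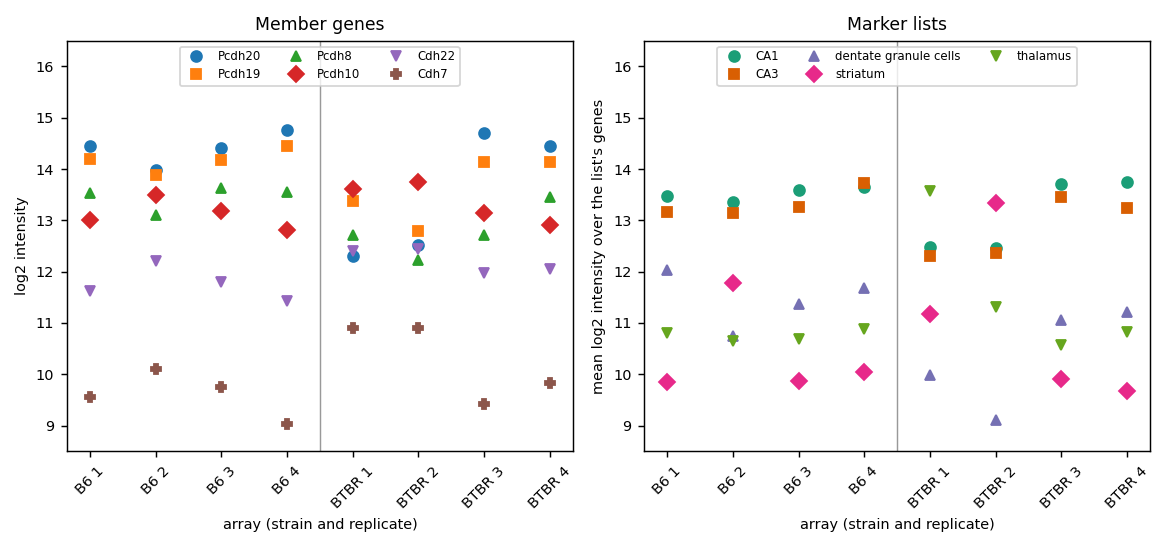
Log2 intensity on each of the 8 arrays (x axis, strain and replicate) for 1 probe each of 6 member genes (left) and the mean log2 intensity of the marker lists of 5 brain regions or cell types (right). Pcdh20 and Pcdh19 are lowest and Cdh7 is highest in BTBR replicates 1 and 2, the arrays with the lowest CA1, CA3 and dentate granule cell lists.

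In the clustered protocadherins, 0 of 41 tested probes from 30 gene names were called, against 7.61% of all tested probes. At an unadjusted limma p under 0.05 there were 3 probes, against 18.5% of all tested probes, and the rank product called 0. The median difference was -0.01 and the median absolute difference 0.06, against 0.10 over all tested probes. These medians are of differences over both slides. For strain by slide interaction, 8 of the 41 had an unadjusted limma p under 0.05, against 9.94% of all tested probes. None passed after adjustment. All 8 were beta probes and lower in BTBR on the first slide. At all of them but Pcdhb9 the sign turned on the second, for example at Pcdhb4 (-0.46, then 0.40) and Pcdhb3 (-0.51, then 0.24). The 95% interval lay within 0.5 of 0 on the log2 scale for 37 of the 41 probes. The strains did not overlap at 2 of the 41 probes, against 14.2% of all tested probes.

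**Figure D4:**
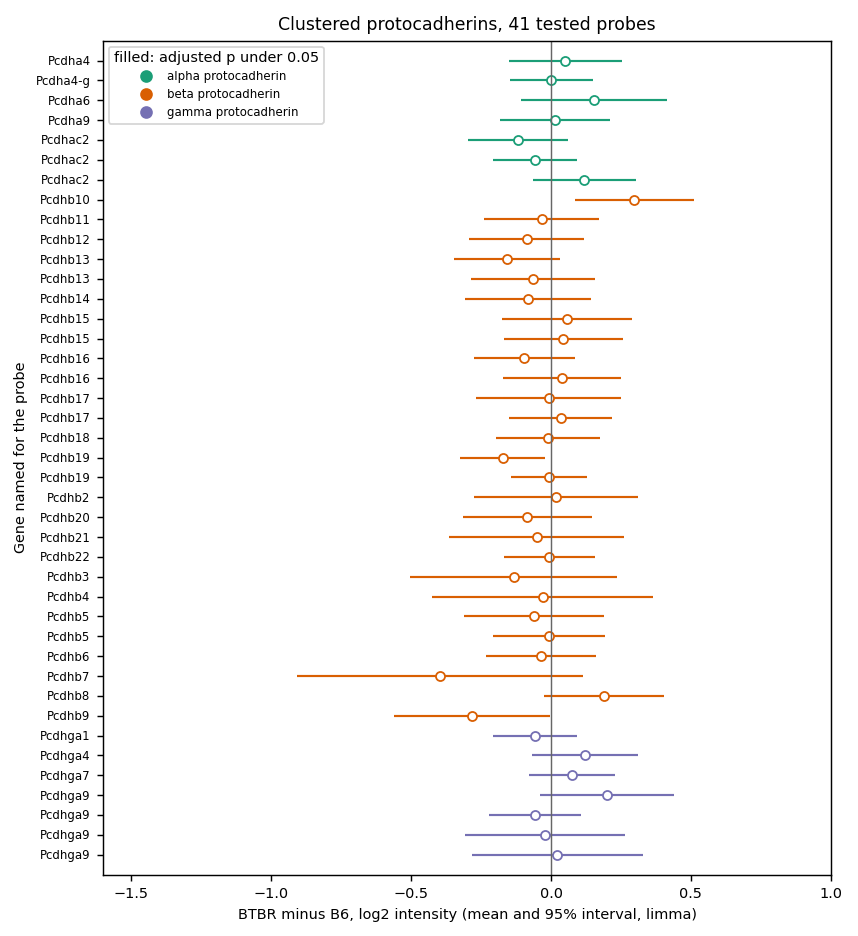
Difference between BTBR and B6 in log2 intensity (x axis) with the 95% interval from limma for each of the 41 tested probes of the alpha, beta and gamma protocadherins (y axis, by gene). No point is filled, since no probe had an adjusted p under 0.05; the lowest and highest differences are -0.40 (Pcdhb7) and 0.30 (Pcdhb10).

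For the alpha and gamma clusters the probes with several listed genes stand for the cluster more than for 1 gene. Of the 9 member probes that list several RefSeq genes, 8 were in the clusters. The 3 Pcdhac2 probes each list 4 alpha genes, and they differed by -0.12, -0.06 and 0.12. The brightest alpha probe, A_52_P404535 of Pcdhac2, read 14.33 ± 0.07 in B6 and 14.27 ± 0.08 in BTBR (SD, n = 4 each). Of the 4 tested probes named Pcdhga9, 3 list 4 genes each, and the brightest gamma probe, A_51_P474518, read 16.62 ± 0.01 and 16.56 ± 0.13. It shares 40 bases with A_51_P470769, which differed by 0.20 (95% interval -0.04 to 0.44). The other alpha probes differed by 0.05 (Pcdha4), 0.15 (Pcdha6) and 0.02 (Pcdha9), and the gamma probes that list 1 gene differed by -0.06 (Pcdhga1), 0.12 (Pcdhga4), 0.08 (Pcdhga7) and -0.02 (Pcdhga9). Pcdha4-g, counted with the alpha group by its name, lists no RefSeq gene, lies among the gamma probes and differed by 0.00. None of the 14 tested alpha and gamma probes had an unadjusted limma p under 0.05, against 18.5% of all tested probes. The rank product called none of them, against 3.92%.

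Beta genes have single exons, and 21 of 22 names were tested with 27 probes. Lower values in BTBR were measured at 20 of the 27, with a median difference of -0.03 and none called, but at only 10 of the 27 without BTBR replicates 1 and 2, where 17 were higher. Pcdhb10 showed the highest difference, with 9.27, 9.21, 9.19 and 9.25 in B6 and 9.40, 9.38, 9.79 and 9.54 in BTBR. The strains did not overlap, and the difference was 0.30 (95% interval 0.08 to 0.51, limma adjusted p = 0.11). This difference was 0.15 on the first slide and 0.45 on the second. Without BTBR replicates 1 and 2, which leaves BTBR on the second slide only, it was 0.44 and called (limma adjusted p = 0.0338). The adjusted p had a range of 0.0338 to 0.455 over 21 alternatives, and this was the 1 clustered probe called under any of them. Pcdhb19 had BTBR values of 8.39 to 8.44 below B6 values of 8.52 to 8.75 at A_51_P268469, a difference of -0.17 (limma adjusted p = 0.20), and -0.01 at its other probe. Pcdhb9 differed by -0.28 (limma adjusted p = 0.26), with 10.02 and 9.74 in BTBR replicates 1 and 2, and by -0.08 without them. Pcdhb7 differed by -0.40 (95% interval -0.91 to 0.12), and by -0.06 without them. BTBR replicates 1 and 2 were the lowest 2 arrays at 10 of the 27 beta probes, and at 12.9% of all tested probes. The brightest beta probe, of Pcdhb21, read 12.12 ± 0.20 in B6 and 12.06 ± 0.24 in BTBR.

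Genes that work with cadherins were examined in 4 lists with 106 tested probes, of which 2 were called (1.89%, against 7.61% of all tested probes), both higher in BTBR. Among catenins and linkers (28 probes of 12 genes), Vcl, or vinculin, which ties alpha-catenin to actin, read 11.33, 11.43, 11.45 and 11.44 in B6 and 11.79, 11.64, 11.59 and 11.73 in BTBR. The strains did not overlap, and the difference was 0.27 (SE 0.07, limma adjusted p = 0.0371). The alpha- and beta-catenin probes with the lowest p, of Ctnna2 (0.41) and Ctnnb1 (-0.25), were not called (limma adjusted p = 0.0645 and 0.0869). Among other superfamily genes (30 probes of 15 genes), Cdhr1, a photoreceptor and olfactory bulb cadherin once named Pcdh21, read 10.09, 10.16, 9.72 and 9.92 in B6 and 10.77, 11.59, 10.57 and 10.51 in BTBR. The BTBR values were all higher, with a difference of 0.89 (SE 0.23, limma adjusted p = 0.0486) that was 0.57 without BTBR replicates 1 and 2. By limma, 0 probes were called among signalling and cleavage partners (22 probes of 12 genes, including the Cyfip and Abi genes of the actin-regulating WAVE complex and the sheddase Adam10). There were also 0 among genes of protocadherin promoter choice (26 probes of 12 genes, including Ctcf, the factor that loops the clusters' promoters to their enhancers, and the cohesin subunits). Both calls were close to the threshold and were lost in 11 (Cdhr1) and 12 (Vcl) of 21 alternatives.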

How the data were processed

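Hippocampal RNA of 4 BTBR and 4 B6 mice was hybridized to single-color Agilent arrays, 1 mouse per array. The deposited intensity values (mean spot signal, local background and flags) were extracted from the scans by Agilent's software, whose version is 10.7.3.1 per the file headers and 9.1 in the submitters' processing notes. The log2 matrix deposited by the authors was background subtracted and quantile normalized, and served as an alternative. Here, the local background was taken off, values under 0.5 were set to 0.5, and the log2 of each value plus 50 went into quantile normalization. Flagged spots and control probes were left out, replicate spots were combined by their median, and probes were kept when well above background on 75% of the arrays of 1 strain. The probe, not the gene, was the unit. Strains were compared with limma 3.58.1 in R 4.3.3 (Benjamini-Hochberg). In 1 simulation of 27982 probes, values were drawn as independent normal noise with each probe's SD from limma. Log2 changes of 1 and 2 were added at 100 probes each, and 94 and 100 were recovered, with 9 false calls in the whole simulation. The simulated arrays hold no shared deviations such as those of BTBR replicates 1 and 2, so recovery in the measured data was not tested. The methods' rank product (100 permutations), other background corrections, scalings, filters and blocks, and leaving out arrays were alternatives. Members and lists were chosen with earlier results of these data known. The text names genes with a called probe, the brightest probe of each subgroup, called partners and, where stated, genes chosen after their values were seen. Probe positions are in mm9 as given by the scanner files, and pseudogene classes are from RefSeq GRCm38.p6. Exon annotation of mm9 was not used here. The limma p-values set the strain difference against the spread between single mice of each strain, moderated over all probes. The rank product permutes probes within arrays and takes no account of that spread.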

Additional observations from a re-analysis of the deposited data

Results flagged for a closer look

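In 7 of the 184 strain groups of tested member probes, 1 array lay far from the other 3 of its strain, by Dixon's criterion for 4 values. Chance alone gives such a gap in about 1 in 20 groups. B6 replicate 1 gave 4 of the 7. It was high at the beta protocadherin probes of Pcdhb15 (A_51_P159833, 9.36, with the next B6 array at 9.08), Pcdhb21 (12.41, next 12.05) and Pcdhb22 (9.19, next 8.98). At Pcdh18 the same array was low (8.32, next 8.45). The BTBR arrays of Pcdh18 also had a distant value, 8.83 in replicate 1 (next 8.54). At Cdh13, B6 replicate 2 read 14.38 (next 13.80), and this array also had the highest striatal marker list of the B6 arrays. At the Cdh11 probe A_51_P506204, B6 replicate 4 read 11.78 (next 11.52). None of these 7 probe and strain pairs belongs to a called probe.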

How the results depend on the processing

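The directions of the 5 called member probes were the same under every alternative that gave a value, and Cdh10 and Cdh11 were called in all of theirs (20 and 21). The Cdh10 probe could not be tested when probes had to be well above background on all arrays. The call of Cdh18 was lost in 3 alternatives and those of the 2 Pcdh9 probes in 1 each, as given above. Leaving out BTBR replicates 1 and 2, and these with B6 replicate 2, were chosen after seeing the data. Both settings leave BTBR on the second slide only. Without BTBR replicates 1 and 2 the difference turned from -0.35 to 0.025 at Pcdh19 A_51_P348232 and from -0.90 to 0.18 at Pcdh20, and without the 3 arrays it was 0.044 at Pcdh20. At Cdh13 (0.16) these values were -0.34 and -0.19, and -0.047 to 0.43 with 1 array left out. The cause was not tested. Over all probes, the 2129 calls became 1098 with the rank product and 1183 without the 3 arrays (1533 to 2182 when 1 array was left out). Clustered calls were 0 under every alternative but 1, in which BTBR replicates 1 and 2 were left out (1 call). Among the others, taking each gene as the median of its tested probes gave 1 call, and leaving out 1 array gave 4 to 6. Partner calls were 1 instead of 2 with median centring, with no filter on dim probes, with detection on all arrays, with outlier spots kept and with the rank product, 3 with the scanner's processed signal, the deposited matrix and the slide as a block, and 0 to 3 with 1 array left out. Same-numbered arrays of the strains share a slide as well as a number, and the sample labels name no pairing of the mice. Correlations of their deviations were -0.142, 0.51, -0.101 and 0.39, against -0.496 to 0.37 for arrays of different number. With the replicate number as a block, 1650 probes were called over all, 6 among the others (adding Pcdh10 A_51_P441234), 0 clustered and 1 partner probe. Signals near background limit the 23 probes that were not tested.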
